A study of Mus musculus with 7 samples.

Results

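The proteasome genes were taken as the rows of the deposited count table whose symbol starts with Psma, Psmb, Psmc, Psmd, Psme, Psmf or Psmg and a digit, which gave 49 of 23337 genes. Of these, 48 encode proteasome subunits, activators, an inhibitor or assembly chaperones; the other one, Psmc3ip, is named for a protein that binds an ATPase of the proteasome and is a recombination factor. The filter on low counts left 48 of the 49 for testing, and Psmb11, the thymus-restricted catalytic subunit, had 1 count in all and was not tested. The counts came from cardiomyocytes of mice at postnatal day 30 (P30, 3 libraries) and postnatal day 6 (P6, 4 libraries). Both ages shared the genotype label Rosa-Tom/Cas9 and an injection on day 1 of AAV9-cTNT-Cre, a virus in which the troponin T promoter, active in cardiomyocytes, drives Cre recombinase. Hearts were digested by retrograde collagenase perfusion and cells were purified by fluorescence-activated sorting. The treatment text of the labels names P14 as the day of collection; the ages in the titles, the age field and the design text were used instead. Time since the virus differs with age in the same way and cannot be told apart from it. Which allele each animal carried, and whether libraries came from separate animals, is not stated. The p-values therefore rest on library-to-library spread, and this may be technical.

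The proteasome is the protease that degrades ubiquitin-tagged proteins in the cytosol and nucleus. Its barrel, the 20S core, stacks rings of alpha and beta subunits, and of the beta subunits only Psmb5, Psmb6 and Psmb7 cut peptide bonds; interferon can replace them with Psmb8, Psmb9 and Psmb10 to form the immunoproteasome, whose products feed class I antigen presentation. The barrel is opened by caps, among them the 19S particle, which binds and unfolds ubiquitinated substrates, and the activators PA28 and PA200, which act without ubiquitin. In the heart the system turns over sarcomere and other proteins of long-lived muscle cells.

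Total counts ran from 15555469 to 19368717 in the P30 libraries and from 10594932 to 51427646 in the P6 libraries, and the libraries are called P30a to P30c and P6a to P6d after their columns. Values are CPM, counts relative to library sizes scaled by the trimmed mean of M-values (TMM). At these depths 3 counts were worth 0.167 to 0.21 CPM at P30 and 0.0553 to 0.271 CPM at P6. Markers of cardiomyocytes were abundant at both ages. Of 10 such markers 4 were higher and 1, Nkx2-5, lower at P30, where 26.3% of all tested genes were higher and 27.8% lower. The most counted were Myh6, the adult myosin heavy chain, with 54701 to 58678 CPM at P30 and 26977 to 40316 CPM at P6, which was higher, and Actc1 and Mybpc3, which did not pass. Actc1 had 27190 to 32704 CPM at P30 and 20881 to 29175 CPM at P6, and Mybpc3 had 10518 to 10865 CPM at P30 and 8644 to 10750 CPM at P6. Markers of other cells were present as well, among them Kdr with 153 ± 46.9 CPM at P30. Acta2, of the mural cell list, had 806 to 1703 CPM at P30 and stood apart from its list. The other 7 mural markers together had 127 to 191 CPM at P30, a sum taken after the values were seen. Of those 7, Tagln had 3.02 to 5.47 CPM at P30. The amount of such cells was not estimated. Most leukocyte and endothelial markers differed with age, and most fibroblast markers did not. These lists are described further on. In such bulk samples, fewer cells of a type and less RNA per cell cannot be told apart.

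The genes with the largest rises were Psme4, Psmb8 and Psmb9, and their promoters are shown here for that reason; the part of these sequences in the changes was not tested. They come from a table of RefSeq promoters (GRCm38.p6), in which 41 of the 49 symbols were matched, and run from 250 bases before to 50 bases after the annotated start. The windows lie at chr11:30771525-30771824 (plus strand) for Psme4, chr17:34197945-34198244 (plus strand) for Psmb8 and chr17:34187281-34187580 (minus strand) for Psmb9. RefSeq start sites differ from the GENCODE gene bounds given further on. Capitals mark matches to the motifs searched on both strands: TGACNNNGC, the core of the antioxidant response element read by Nfe2l1 and Nfe2l2; GAAA, NN and GAAA in a row, the core of the interferon-stimulated response element; TTCNNNGAA, the gamma-activated sequence; and CCAAT, the box bound by NF-Y.
Psme4: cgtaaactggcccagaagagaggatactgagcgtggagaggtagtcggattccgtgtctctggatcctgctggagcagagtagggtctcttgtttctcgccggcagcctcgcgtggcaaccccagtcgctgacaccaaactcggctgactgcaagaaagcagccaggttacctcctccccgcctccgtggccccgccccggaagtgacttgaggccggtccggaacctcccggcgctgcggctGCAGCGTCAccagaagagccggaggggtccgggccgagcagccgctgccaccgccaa
Psmb8: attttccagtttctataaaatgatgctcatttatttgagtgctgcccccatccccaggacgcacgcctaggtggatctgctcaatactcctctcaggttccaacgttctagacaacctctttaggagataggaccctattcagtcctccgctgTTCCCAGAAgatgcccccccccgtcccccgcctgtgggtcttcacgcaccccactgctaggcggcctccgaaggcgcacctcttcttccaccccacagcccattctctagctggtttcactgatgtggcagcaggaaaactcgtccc
Psmb9: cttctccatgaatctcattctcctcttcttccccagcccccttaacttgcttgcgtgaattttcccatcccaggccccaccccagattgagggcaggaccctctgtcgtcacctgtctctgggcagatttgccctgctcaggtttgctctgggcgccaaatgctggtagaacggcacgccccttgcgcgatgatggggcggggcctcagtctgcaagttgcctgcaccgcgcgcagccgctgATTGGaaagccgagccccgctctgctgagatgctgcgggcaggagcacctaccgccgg
The Psme4 window held TGACNNNGC on the reverse strand across the start site, the Psmb8 window held TTCNNNGAA from base -97 to -89, and the Psmb9 window held CCAAT on the reverse strand from base -8 to -4. No motif overlapped another in these windows. Over the 44 windows of the matched symbols, Psmc3ip and alternative starts included, TGACNNNGC occurred in 13.6%, the interferon-stimulated core in 11.4%, TTCNNNGAA in 6.82% and CCAAT in 34.1%. Over all 32851 windows of that length the shares were 12.4%, 3.44%, 8.3% and 37.4%. The interferon-stimulated core lay in the windows of Psmb3, Psmd4, Psmd9, Psme1 and Psmg4. The Psmb9 window shares 275 bases with that of Tap1, a peptide transporter gene read in the opposite direction whose start lies 226 bases away.

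Most proteasome transcripts differed little between the ages, and a few differed much. In all, 4 members were higher at P30 (Psme4, Psmb8, Psmb9 and Psmd2) and 15 were lower, by edgeR's quasi-likelihood test with a Benjamini-Hochberg adjusted p under 0.05 over 12561 tested genes. These were 8.33% and 31.2% of the 48 tested, against 26.3% of all tested genes called higher and 27.8% called lower, or 54.1% either way. The median log2 fold change (P30 over P6) was -0.14 over the members and -0.02 over all tested genes. CPM ranges of the ages did not overlap for 7 higher and 14 lower members (14.6% and 29.2%), against 27.8% and 28.8% of all tested genes. How many were lower varied with scaling and with which libraries were kept. Library totals in place of TMM moved the median of all genes to -0.20 and called 37.1% of them lower and 19.2% higher. The number of lower members was then 27, and with a trend on transcript length removed it was 8. The numbers higher were 3 and 12. Over all genes, 27.1% were higher and 27.7% lower with the length trend removed. The number lower was 9 without P30a and 8 without P30b, where 22.9% and 22.5% of all genes were lower. Members are short, with a median transcript of 1440 bases. The length decile of all genes nearest to that (median 1519 bases, genes of at least 10 CPM) had a median log2 fold change of -0.11. In the shortest decile (median 955 bases) it was -0.32, against 0.24 in the longest decile.

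**Figure D1:**
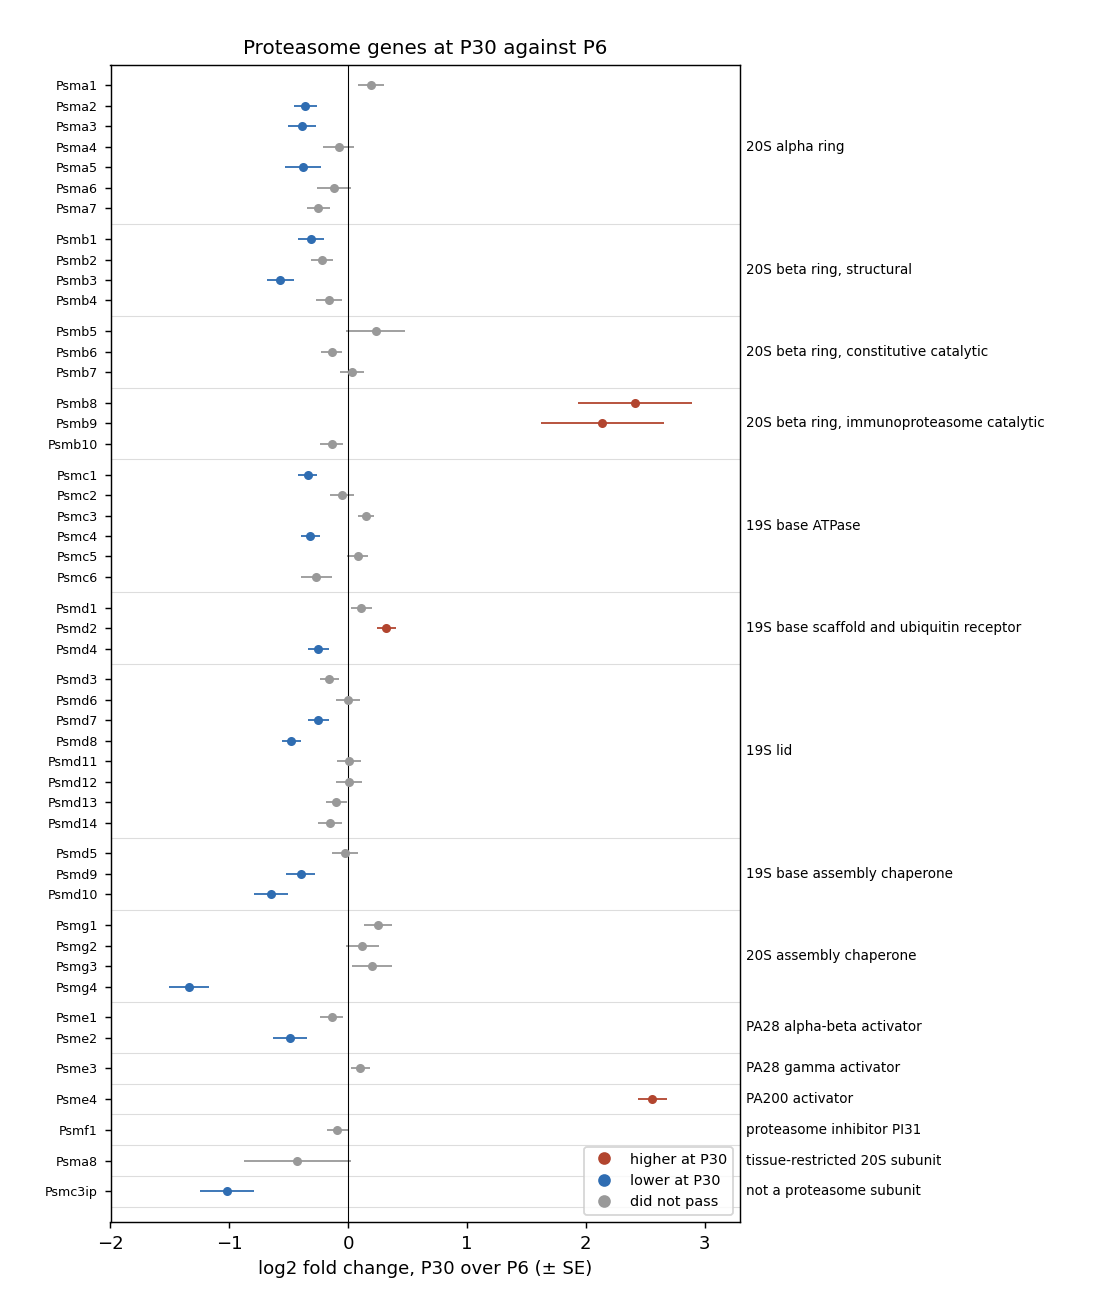
Log2 fold change of each tested proteasome gene, P30 over P6, with its SE as a bar, grouped by subcomplex; red and blue mark genes higher and lower at P30 by edgeR's test and grey those that did not pass. Psme4, Psmb8 and Psmb9 stand between 2.14 and 2.56, while the other members lie between -1.34 and 0.32.

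Psme4 encodes PA200, the large single-chain activator that caps the core and in mouse testis and nuclei is known for the turnover of acetylated histones. It lies on chromosome 11, 30771726 to 30880361, plus strand (GRCm38, GENCODE). It had 598, 663 and 480 CPM in P30a to P30c, against 95.5, 86.6, 105 and 106 CPM in P6a to P6d. Every P30 library was above every P6 library, and P30c was the lowest of the 3. The means were 580 ± 92.7 CPM at P30 and 98.2 ± 9.03 CPM at P6 (SD, n = 3 and 4), a 5.91-fold difference (log2 fold change 2.56 ± 0.12, SE; edgeR adjusted p = 9.6e-07). Of all tested genes, 3.1% passed the threshold and were at least 4-fold higher. The call held under all 14 alternatives, with log2 fold changes of 2.39 to 2.68. Psme4 was the most counted member at P30; per kilobase of transcript, which is 6491 bases long, it had 89.4 ± 14.3 CPM at P30 and 15.1 ± 1.39 CPM at P6. This set it at 0.736 ± 0.148 of the mean level per kilobase of the 14 standard core subunits at P30 and at 0.112 ± 0.00789 at P6.

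None of the other activator genes was called higher. Psme1 and Psme2 encode the alpha and beta subunits of PA28, the interferon-inducible cap. Psme1 had 146 ± 11.7 CPM at P30 and 161 ± 13.0 CPM at P6 and was not called (log2 fold change -0.14 ± 0.10, edgeR adjusted p = 0.24). Psme2 was lower, with 46.2, 48.1 and 32.3 CPM in P30a to P30c against 57.6, 56.1, 60.0 and 63.1 CPM in P6a to P6d (log2 fold change -0.49 ± 0.14, edgeR adjusted p = 0.014). All P30 values of Psme2 lay under all P6 values; with the length trend removed the edgeR adjusted p was 0.34. Psme3, the nuclear PA28 gamma, had 104 ± 2.76 CPM at P30 and 97.2 ± 5.03 CPM at P6 and did not pass (edgeR adjusted p = 0.31). Psmf1, which encodes the inhibitor PI31, had 38.9 ± 2.17 CPM at P30 and 41.5 ± 1.76 CPM at P6 and did not pass either (edgeR adjusted p = 0.43). Per kilobase, Psme4 made up 29.5%, 30.8% and 27.6% of the 4 activator transcripts in P30a to P30c, against 5.49%, 5.67%, 6.26% and 6.01% in P6a to P6d. Psme1 and Psme2 together made up 57.7% ± 0.298 at P30 and 80.0% ± 0.734 at P6. These shares follow from the Psme4 values above and were given no test of their own.

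**Figure D2:**
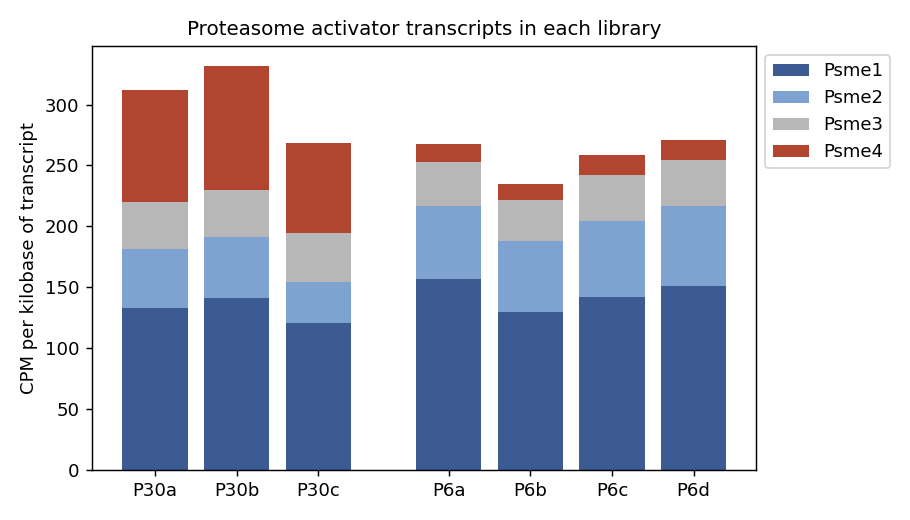
Stacked bars of CPM per kilobase of transcript for Psme1, Psme2, Psme3 and Psme4 in each library, P30 at the left and P6 at the right. The Psme4 segment is 29.3% of the bar on average at P30 and 5.86% at P6.

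Of the inducible catalytic subunits, Psmb8 and Psmb9 were higher at P30 but stayed scarce, and Psmb10 was abundant at both ages. Psmb8 takes the place of Psmb5, the chymotrypsin-like subunit, Psmb9 that of Psmb6, the caspase-like subunit, and Psmb10 that of Psmb7, the trypsin-like subunit. Psmb8 (chromosome 17, 34197721 to 34201454, plus strand, GRCm38) had 4.97, 9.18 and 2.03 CPM in P30a to P30c, from 89, 142 and 29 counts. In P6a to P6d it had 1.54, 0.699, 1.01 and 0.928 CPM, from 17, 21, 55 and 11 counts. The ages did not overlap, but P30c stood close to P6a. The log2 fold change was 2.41 ± 0.48 (edgeR adjusted p = 0.0022), and 1.79 without P30b (edgeR adjusted p = 0.011). The adjusted p of Psmb8 was at most 0.011 under its 14 alternatives.

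Psmb9 (chromosome 17, 34181987 to 34187764, minus strand) had 3.29, 2.52 and 0.772 CPM in P30a to P30c, from 59, 39 and 11 counts. In P6a to P6d it had 0.362, 0.666, 0.332 and 0.675 CPM, from 4, 20, 18 and 8 counts. Here P30a was highest, and P30c lay only just above P6b and P6d. The log2 fold change was 2.14 ± 0.52 (edgeR adjusted p = 0.0066), 1.71 to 2.53 under 13 alternatives, with edgeR or DESeq2 adjusted p up to 0.043. A minimum of 1 CPM in 3 libraries left Psmb9 untested. Part of the exons of both genes is shared with a gene on the other strand: 14.7% of Psmb8 with the antisense gene Gm20496 and 5.79% of Psmb9 with Tap1. The strand setting of the counting is not given, so reads of the paired genes cannot be told apart there.

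Psmb10 (chromosome 8, 105935735 to 105938444, minus strand) had 37.9, 40.8 and 39.8 CPM in P30a to P30c, against 39.3, 42.2, 45.0 and 47.7 CPM in P6a to P6d. The ranges overlapped, and the log2 fold change of -0.14 ± 0.10 did not pass (edgeR adjusted p = 0.26). Psmb10 supplied most of the inducible transcripts at both ages, 84.4% ± 8.09 of their raw counts at P30 and 96.5% ± 0.768 at P6. In the P30 libraries this share was lowest in P30b, at 77.7%, and highest in P30c, at 93.4%.

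None of the constitutive catalytic subunits passed the test. Psmb5 had 75.4, 66.2 and 53.6 CPM in P30a to P30c, against 44.9, 34.6, 66.7 and 76.8 CPM in P6a to P6d (log2 fold change 0.23 ± 0.25, edgeR adjusted p = 0.47). It was the most variable of the standard core and 19S cap subunits at P6, where P6a and P6b lay below P6c and P6d; a pseudogene without a row in the table aligns to its transcript, so its count is uncertain. Psmb6 had 219 ± 13.1 CPM at P30 and 242 ± 19.8 CPM at P6 (edgeR adjusted p = 0.21). Psmb7, which shares 11.8% of its exon bases with Nek6 on the other strand, had 141 ± 5.29 CPM at P30 and 138 ± 16.6 CPM at P6 (edgeR adjusted p = 0.81). With the length trend removed Psmb6 and Psmb7 were higher at P30, with log2 fold changes of 0.22 and 0.25 and edgeR adjusted p of 0.023 and 0.013.

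**Figure D3:**
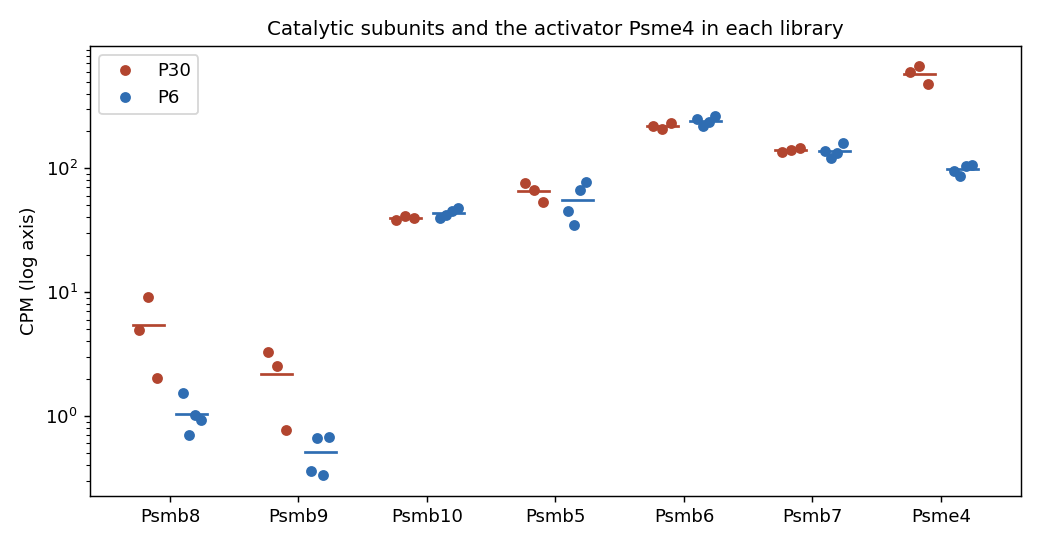
CPM on a log axis of the inducible subunits Psmb8, Psmb9 and Psmb10, the constitutive subunits Psmb5, Psmb6 and Psmb7 and the activator Psme4; each point is a library, P30 left of P6, and the line is the mean. Psmb8 and Psmb9 lie under 10 CPM at both ages, and Psme4 lies between 480 and 663 CPM at P30.

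Within each catalytic pair, the share of raw counts taken by the inducible subunit does not depend on library scaling. Psmb8 made up 6.18%, 12.2% and 3.66% of Psmb8 and Psmb5 counts in P30a to P30c, against 3.31%, 1.98%, 1.5% and 1.19% in P6a to P6d. The means were 7.34% ± 4.38 at P30 and 2.0% ± 0.936 at P6 (SD, n = 3 and 4), with a two-sided exact permutation p of 0.0286, the smallest possible with 35 splits of 7 libraries. Adjusted over the 3 pairs (Benjamini-Hochberg) it was 0.0429. Every P30 library was above every P6 library, but the Wilson 95% interval of P30c (2.56% to 5.2%) overlapped those of P6a (2.08% to 5.24%) and P6b (1.3% to 3.01%); these intervals cover counting error only. The difference was 5.34 percentage points, and 2.92 without P30b; taken as a log2 ratio it was 1.87 with an exact permutation p of 0.0571.

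For the Psmb9 pair the shares were 1.48%, 1.21% and 0.331% in P30a to P30c, against 0.144%, 0.303%, 0.142% and 0.254% in P6a to P6d. The means of 1.01% ± 0.602 at P30 and 0.211% ± 0.0807 at P6 gave the same exact permutation p of 0.0286 and adjusted value of 0.0429. The Wilson 95% interval of P30c, 0.185% to 0.592%, overlapped those of all P6 libraries (P6b, with the highest share, had 0.196% to 0.467%). Such overlap is not a test, and single libraries were not tested against each other. Psmb10 made up 21.9% ± 0.583 of its pair at P30 and 24.1% ± 1.77 at P6, with overlapping ranges and an exact permutation p of 0.143 (0.143 adjusted). Counted over all 6 catalytic genes, the inducible subunits took 9.99% ± 1.19 at P30 and 9.43% ± 0.765 at P6, while Psmb8 and Psmb9 alone took 1.61% ± 0.967 at P30 and 0.325% ± 0.0544 at P6.

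**Figure D4:**
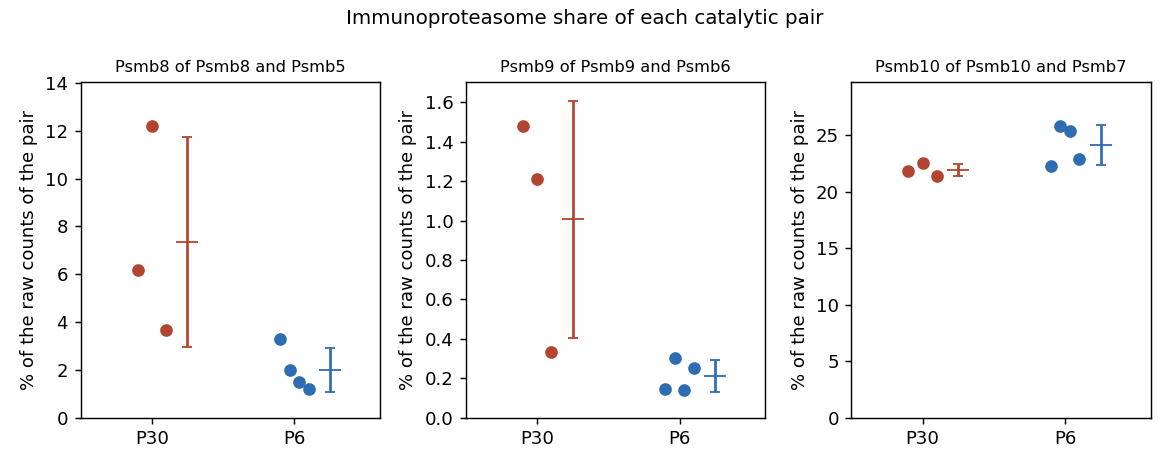
Share of the inducible subunit in the raw counts of each catalytic pair, in percent; points are libraries, P30 left of P6, and the bar gives the mean ± SD. For Psmb8 and Psmb9 all 3 P30 points are above all 4 P6 points, by a narrow margin for P30c, and for Psmb10 the ages overlap near 22%.

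Leukocyte and endothelial markers moved in the same direction as Psmb8 and Psmb9. Mural markers did so in part, and no fibroblast marker was called higher. For the counts of each marker list, 26.3% of all tested genes were higher and 27.8% lower. Of 14 leukocyte markers with a row, 11 were tested and 11 were higher at P30. The summed level of the 14 was 21.0, 75.5 and 28.1 CPM in P30a to P30c, against 4.98, 6.46, 2.93 and 6.5 CPM in P6a to P6d. None was at 0 in all libraries of an age; the most counted were Cd74, Lyz2 and Csf1r, with 9.52 ± 8.66, 8.71 ± 5.66 and 6.28 ± 3.92 CPM at P30, against 0.436 ± 0.415, 1.86 ± 0.655 and 0.587 ± 0.556 CPM at P6. Of 10 endothelial markers, 9 were higher, with a sum of 493, 720 and 352 CPM in P30a to P30c, against 117, 205, 209 and 155 CPM in P6a to P6d. The most counted of these was Kdr, the main VEGF receptor, with 153 ± 46.9 CPM at P30 and 28.4 ± 7.64 CPM at P6. Pecam1 and Tie1 followed, with 62.8 ± 27.1 and 58.6 ± 19.6 CPM at P30, against 27.1 ± 5.85 and 19.1 ± 7.09 CPM at P6. Of 8 mural cell markers 5 were higher, with sums of 997 to 1830 CPM at P30 and 978 to 2193 CPM at P6, but Acta2 made up most of these sums, with 806 to 1703 CPM at P30 and 915 to 2075 CPM at P6. Without Acta2, a sum taken after the values were seen, the other 7 had 164, 191 and 127 CPM in P30a to P30c, against 63.2, 85 and 118 CPM in P6a to P6c and 98.6 CPM in P6d, without overlap. After Acta2 the most counted were Cspg4, with 48.4 ± 1.37 CPM at P30 and 50.5 ± 12.4 CPM at P6, and Pdgfrb, with 37.5 ± 11.6 CPM at P30 and 12.8 ± 2.69 CPM at P6. Of 7 fibroblast markers tested 1, Postn, was lower (13.7 ± 5.42 CPM at P30 and 38.9 ± 8.87 CPM at P6), and the sums were 137 to 313 CPM at P30 and 158 to 391 CPM at P6. The collagens Col3a1 and Col1a1 did not pass, with 97.7 ± 45.8 and 19.8 ± 12.6 CPM at P30, against 116 ± 56.4 and 30.8 ± 17 CPM at P6. Endothelial and leukocyte sums were highest in P30b, as was Psmb8, whereas Psmb9 was highest in P30a. Among the P30 libraries the endothelial sum had the same order as Psme4. The part of these cells in the levels of Psmb8, Psmb9 or Psme4 was not tested.

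**Figure D5:**
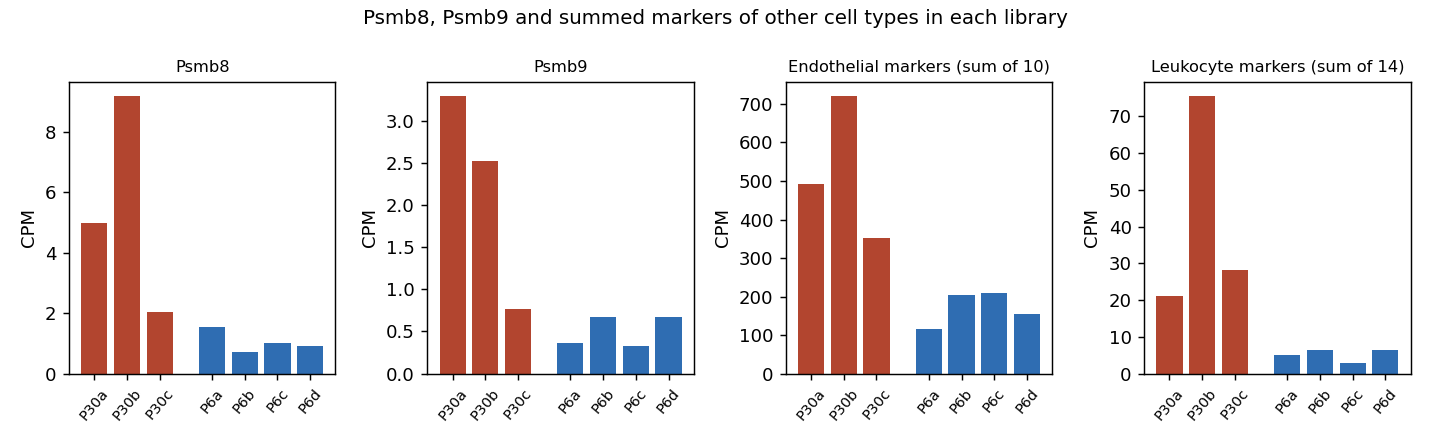
CPM of Psmb8 and Psmb9 and the summed CPM of 10 endothelial and 14 leukocyte markers in each library, P30 in red at the left and P6 in blue at the right. All 4 quantities are higher in each P30 library than in each P6 library, and P30b is highest in 3 of them.

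Genes that induce the immunoproteasome and load its products were mostly higher at P30, in the same libraries in which leukocyte and endothelial markers were higher. The part of other cells was not tested. Of 11 genes of interferon signalling known to induce the immunoproteasome, 9 were higher and none lower, with a median log2 fold change of 0.63. Over all tested genes 26.3% were higher and 27.8% lower, the shares to set beside the class I list below as well. The 2 most counted were Ifngr2, a chain of the interferon gamma receptor, with 404 ± 22.6 CPM at P30 and 313 ± 37.3 CPM at P6, and the kinase Jak1, with 252 ± 25.8 CPM at P30 and 164 ± 7.69 CPM at P6. Irf2 did not pass, with 9.06 ± 1.26 CPM at P30 and 10.0 ± 2.21 CPM at P6. Chosen after their values were seen, the transcription factor Irf1 and the class I regulator Nlrc5 showed a wider gap. Irf1 had 13.5 ± 4.09 CPM at P30 and 2.69 ± 0.604 CPM at P6, and Nlrc5 had 3.90 ± 2.85 CPM at P30 and 0.198 ± 0.219 CPM at P6. For Nlrc5, as for Psmb9, P30c was the lowest P30 library, with 0.912 CPM. In class I antigen processing 8 of 11 genes were higher and 1, the chaperone Canx, lower (455 ± 31.1 CPM at P30 and 524 ± 4.70 CPM at P6). The most counted of those higher were the chaperone Calr, with 393 ± 63.8 CPM at P30 and 238 ± 38.9 CPM at P6, and the disulfide isomerase Pdia3, with 235 ± 11.8 CPM at P30 and 197 ± 8.85 CPM at P6. Tapbp, which bridges class I to the transporter, did not pass (99.0 ± 15.1 CPM at P30 and 85 ± 10.7 CPM at P6). Tap1, named after its values were seen, which shares its promoter region with Psmb9, had 8.42, 9.05 and 3.44 CPM in P30a to P30c, against 1.99, 2.36, 2.03 and 1.6 CPM in P6a to P6d.

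The standard 20S core was spread over low fold changes. Of its 14 subunits none was higher and 5 were lower, Psma2, Psma3 and Psma5 in the alpha ring, which gates the barrel, and Psmb1 and Psmb3 among the structural beta subunits. Those 5 were 35.7% of the 14, where 27.8% of all tested genes were lower and 26.3% higher. Psmb3 differed most, with 73.5, 68.7 and 81.1 CPM in P30a to P30c against 119, 98.9, 99.6 and 124 CPM in P6a to P6d. Its log2 fold change was -0.57 ± 0.11 (edgeR adjusted p = 0.0022), and its ranges did not overlap, but the edgeR adjusted p was 0.067 with the length trend removed. Psma2 had 132 ± 5.57 CPM at P30 and 169 ± 19.6 CPM at P6 (edgeR adjusted p = 0.016), a call lost without P30b (0.068). Psma3, Psma5 and Psmb1 had log2 fold changes of -0.39, -0.38 and -0.31, and lost their calls under 3, 7 and 6 of 14 alternatives. Psma3, Psma4, Psma5 and Psmb3 each have 1 or more pseudogenes of at least 95% identity that hold no row in the table. Their counts are therefore uncertain. Psma1, Psma4, Psma6, Psma7, Psmb2 and Psmb4 did not pass, with log2 fold changes between -0.25 and 0.19. With the length trend removed 3 of the 14 were higher and 2 lower, where 27.1% of all genes were higher and 27.7% lower. With library totals none was higher and 9 lower, where 19.2% of all genes were higher and 37.1% lower. Neither direction can therefore be given to the core as a whole.

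Per kilobase of transcript, the core subunits differed from each other far more than between ages. The highest was Psmb6, with 274 CPM per kilobase at P30 and 303 at P6. The lowest was Psma3, with 26.1 at P30 and 34.2 at P6, a ratio of 10.5 at P30 and 8.88 at P6. The Psma3 level rests on a length of 2846 bases and on a count that its pseudogenes leave uncertain. Not divided by length, Psma3 had 74.3 CPM at P30, above Psma5 with 52.3 CPM and Psmb5 with 65.0 CPM. The mean level per kilobase of the core subunits was 122 ± 5.45 CPM at P30 and 136 ± 16.1 CPM at P6. These levels rest on the annotated principal transcript of each gene, whose length was not checked against the reads. The P6 value was 116 CPM in P6b and 155 CPM in P6d, so that the ages overlapped.

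Of the 17 subunits of the 19S cap with a Psm name, 1 was higher and 5 were lower. These were 5.88% and 29.4%, against 26.3% and 27.8% of all tested genes. With the length trend removed 3 of the 17 were higher and 2 lower, where 27.1% of all genes were higher and 27.7% lower. With library totals none was higher and 10 lower, where 19.2% of all genes were higher and 37.1% lower. Cap subunits with other names lie outside these counts. Of these, Shfm1, described further on, was lower, with a log2 fold change of -1.29 ± 0.19 (edgeR adjusted p = 0.00036). Adrm1, named after its values were seen, was lower as well (-0.58 ± 0.10, edgeR adjusted p = 0.0011). Psmd2, the subunit called higher, encodes a base scaffold that docks ubiquitin shuttles. It had 421, 421 and 409 CPM in P30a to P30c against 327, 351, 342 and 317 CPM in P6a to P6d. All P30 values were above all P6 values, with a log2 fold change of 0.32 ± 0.08 (edgeR adjusted p = 0.0055, and 0.17 with library totals). A pseudogene of at least 95% identity leaves the Psmd2 count uncertain. Psmd1, the other large scaffold, had 312 ± 14 CPM at P30 and 289 ± 22.7 CPM at P6 and did not pass (edgeR adjusted p = 0.32). Psmd4, a ubiquitin receptor, was lower (124 ± 3.61 CPM at P30 and 147 ± 11.9 CPM at P6, edgeR adjusted p = 0.037), but 9 of 14 alternatives ended the call.

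Among the 6 ATPases that unfold substrates, Psmc1 and Psmc4 were lower. Psmc1 had 140, 148 and 154 CPM in P30a to P30c against 188, 181, 183 and 193 CPM in P6a to P6d, with no overlap and an edgeR adjusted p of 0.0047 that stayed at 0.028 or less under 14 alternatives; pseudogenes of at least 95% identity leave its count uncertain. Psmc4 had 118 ± 5.46 CPM at P30 and 148 ± 5.31 CPM at P6 (edgeR adjusted p = 0.0065, and 0.079 with the length trend removed). Psmc3, which shares 8.25% of its exon bases with Slc39a13 on the other strand, was among the least variable members, with 320 ± 2.08 CPM at P30 and 288 ± 5.96 CPM at P6; its ranges did not overlap, but the log2 fold change of 0.15 ± 0.07 missed the threshold (edgeR adjusted p = 0.096). Psmc2, Psmc5 and Psmc6 had log2 fold changes of -0.05, 0.08 and -0.27 and did not pass.

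Of the 8 lid subunits with a Psm name, Psmd7 and Psmd8 were lower. Psmd8 had 131, 140 and 138 CPM in P30a to P30c against 198, 180, 184 and 199 CPM in P6a to P6d (log2 fold change -0.48 ± 0.08, edgeR adjusted p = 0.00077), with the same call under all 14 alternatives. Psmd7, the partner of the deubiquitinase subunit, had 129 ± 1.19 CPM at P30 and 154 ± 12.9 CPM at P6 (edgeR adjusted p = 0.036), a call that 9 of 14 alternatives ended. Psmd14, the deubiquitinase that removes ubiquitin chains at the lid, had 89.9 ± 3.05 CPM at P30 and 100 ± 10.5 CPM at P6 and did not pass (edgeR adjusted p = 0.23). Psmd3, Psmd6, Psmd11, Psmd12 and Psmd13 had log2 fold changes of -0.16 to 0.01 and did not pass. For subunits with a Psm name, the mean level per kilobase of the cap over that of the core was 0.776 ± 0.0215 at P30. It was 0.741 ± 0.0514 at P6, with overlapping ranges.

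Assembly chaperones held the largest fall among the members. Psmg4, a partner of Psmg3 in building the alpha ring, had 5.41, 4.91 and 5.75 CPM in P30a to P30c against 13.1, 12.8, 12.1 and 16.5 CPM in P6a to P6d. The groups did not overlap, and the level was 2.53-fold lower at P30 (log2 fold change -1.34 ± 0.17, edgeR adjusted p = 0.00014), with the same call under all 14 alternatives. With the length trend removed the log2 fold change of this short transcript, 555 bases, was -0.80. Its partner Psmg3 had 9.91 ± 1.31 CPM at P30 and 8.67 ± 1.31 CPM at P6, and the other pair of ring chaperones, Psmg1 and Psmg2, had log2 fold changes of 0.25 and 0.12; none of these passed. Of the chaperones of the 19S base, Psmd10, also called gankyrin, had 15.0, 14.9 and 16.8 CPM in P30a to P30c against 24.4, 20.3, 24.5 and 28.7 CPM in P6a to P6d (edgeR adjusted p = 0.0034, called under all 14 alternatives). Psmd9 was lower as well, with 25.7 ± 0.581 CPM at P30 and 34.0 ± 4.16 CPM at P6 (edgeR adjusted p = 0.018). That call ended when P30a or P30b was left out (edgeR adjusted p of 0.056 and 0.065). An unstranded count of Psmd9 could include reads of the lincRNA Gm26745, which shares 25.5% of its exon bases. Psmd5 had 41.6 ± 4.24 CPM at P30 and 42.4 ± 2.86 CPM at P6 and did not pass.

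The remaining members were scarce. Psma8, the alpha subunit of the spermatoproteasome, had 0.849 ± 0.427 CPM at P30 and 1.12 ± 0.413 CPM at P6 and did not pass (edgeR adjusted p = 0.44). Psmc3ip, which shares 21.2% of its exon bases with Mlx on the other strand, had 2.73 ± 0.517 CPM at P30 and 5.56 ± 0.691 CPM at P6, a log2 fold change of -1.02 ± 0.23 (edgeR adjusted p = 0.0041). Without it, 14 of 47 tested members were lower, or 29.8%, against 27.8% of all tested genes.

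The proteins that work with the proteasome, from a list of general knowledge, also went both ways. Of 13 tested partners of the particle 2 were higher and 5 lower, where 26.3% of all tested genes were higher and 27.8% lower. AI314180, the older symbol of the adaptor Ecm29, had 332 ± 14.7 CPM at P30 and 135 ± 10.6 CPM at P6 (log2 fold change 1.30 ± 0.09, edgeR adjusted p = 4.2e-06), and the proteasome-bound ligase Ube3c 134 ± 9.80 CPM at P30 and 103 ± 9.20 CPM at P6. Shfm1, the small lid subunit that does not carry a Psm name, had 70.4 ± 9.97 CPM at P30 and 172 ± 41.5 CPM at P6, and Zfand5, a zinc finger protein that activates the 26S particle, 200 ± 9.71 CPM at P30 and 241 ± 20.2 CPM at P6. Usp14, the deubiquitinase of the base, did not pass, with 134 ± 4.01 CPM at P30 and 131 ± 16.5 CPM at P6.

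Of 8 genes listed under transcriptional control of the proteasome, 3 were higher and 1 lower, against 26.3% and 27.8% of all tested genes. Among the 3, Maf1 is known for repressing RNA polymerase III and not for control of proteasome genes. Without it 2 of 7 were higher. Nfe2l1, the factor that raises proteasome genes when activity falls short, had 608, 577 and 550 CPM in P30a to P30c against 410, 487, 347 and 320 CPM in P6a to P6d, without overlap (edgeR adjusted p = 0.0062). Maf1 had 155 ± 3.48 CPM at P30 and 127 ± 11.7 CPM at P6. The other higher gene was Ngly1, which deglycosylates Nfe2l1 and was named after its values were seen. It had 73.0 ± 0.815 CPM at P30 and 49.9 ± 2.09 CPM at P6. Nfe2l3, a scarce relative, was lower, with 0.331 ± 0.0554 CPM at P30 and 0.867 ± 0.284 CPM at P6, and Nfe2l2 did not pass (85.6 ± 14.5 CPM at P30 and 67.3 ± 14.3 CPM at P6). Of 15 tested genes that supply ubiquitin or deliver substrates, 2 were higher and 8 lower, against 26.3% and 27.8% of all tested genes. Among those higher, the shuttle Ubqln4 had 130 ± 2.74 CPM at P30 and 77.7 ± 7.31 CPM at P6. Vcp, the segregase that extracts substrates, had 440 ± 18.4 CPM at P30 and 507 ± 22.4 CPM at P6, and the shuttle Ubqln1 127 ± 3.12 CPM at P30 and 164 ± 13.7 CPM at P6. Uba1, the main ubiquitin-activating enzyme, had 297 ± 8.79 CPM at P30 and 294 ± 11.7 CPM at P6 and did not pass.

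The authors' deposited table, a DESeq2 comparison of the ages, gave an adjusted p to 48 of the members. Of these, 4 passed 0.05 with a positive and 12 with a negative fold change in the authors' deposited table, against 22.1% and 20.8% of the genes with an adjusted p in it, and 16 of the 19 members called by edgeR passed there in the same direction. The authors' deposited table gave Psme4 a log2 fold change of 2.58 ± 0.14 (SE).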

How the data were processed

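Polyadenylated RNA of sorted cardiomyocytes was measured at P30 (3 libraries) and P6 (4 libraries). Per the labels' protocols, 10 ng RNA was copied with SMART-Seq v4 (8 PCR cycles) and 500 pg cDNA made into Nextera XT libraries. The authors deposited raw counts per gene, made with STAR 2.5.3a and featureCounts (Subread 1.5.2) on mm10, per the submitters' processing notes. The strand setting, the annotation and the handling of multi-mapping reads were not given in the sources used here. Letters of the count columns match no title number, so a column was assigned only to the age it names. The authors' DESeq2 table holds, per the file headers, a mean signal of scaled counts, log2 fold changes with their SE, a Wald score, and p-values; recomputed from the counts, the mean matched for 19954 of 19954 genes (relative tolerance 1e-06), and fold changes were P30 over P6.

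Genes were tested with edgeR 4.0.16 (R 4.3.3): filterByExpr, TMM, quasi-likelihood fit of age, Benjamini-Hochberg over 12561 genes, threshold 0.05. The SE is the log2 fold change over the root of F. Alternatives were DESeq2 1.42.0, other scalings and filters, a length trend as offset, and each library left out. Lengths and coordinates came from GENCODE M21 (GRCm38, the assembly of mm10), with a length for 22872 of 23337 symbols; the length is of the principal transcript. Pseudogenes were aligned with blastn 2.17.0 (at least 95% identity over 300 bases). Pair shares were tested by exact permutation. Replicates were compared: between libraries of one age, chi-square per gene was at least 13.0, so none repeats another. Members and lists were chosen with earlier results of these data known. All members could be named; of each further list the text names the 2 most counted genes past the threshold in each direction and the most counted that did not pass, and of each marker list the 3 with most counts, save for items not reported here. Intervals and the floor of 3 counts cover counting error only.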

Additional observations from a re-analysis of the deposited data

Results flagged for a closer look

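Among 51 sets of 4 P6 values examined (the CPM of each tested member and the 3 pair shares), 1 held a library far from the rest. For Psmd1, P6b had 256 CPM against 296 to 304 CPM in the other P6 libraries, a gap of 0.836 of the whole range, above Dixon's 95% critical value for 4 values. Chance flags about 1 in 20 such sets.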

How the results depend on the processing

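Over 671 refits of single members, 602 kept their side of the threshold, 41 calls were lost and 27 were gained. A change of sign where neither fit passed is counted among the 602. In the remaining 1, Psmb6 had not passed in the main fit (log2 fold change -0.14) and passed in the other direction, with 0.22, once the length trend was removed. Of 48 tested members, 18 stayed on the same side of the threshold under every alternative run. Psme4, Psmb8, Psmb9, Psmd8, Psmd10, Psmc1, Psmg4 and Psmc3ip kept their calls throughout, and the rest of the 18 passed in no fit. The number of members called, 19, was 30 with library totals. Of those 27 were lower, against 15, where 37.1% of all genes were lower and 19.2% higher. With the length trend removed 12 members were higher, against 4, and 8 lower, where 27.1% of all genes were higher and 27.7% lower. With 1 library left out, 12 to 23 members were called, 4 to 5 higher and 8 to 19 lower; over all genes 5698 to 7037 were called, 2788 to 3460 higher and 2885 to 3577 lower. The Psmb8 share differed by 2.92 to 7.18 percentage points, the Psmb9 share by 0.559 to 1.14 and the Psmb10 share by -2.79 to -1.61 with 1 library left out, where too few splits remain for a test. As a log2 ratio the Psmb8 difference of 1.87 had an exact permutation p of 0.0571. The cause of these changes was not tested. No paired analysis was possible because the count columns carry letters and not the replicate numbers of the titles. Psmb8 and Psmb9 rested on 4 to 55 counts in the P6 libraries.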
